A study of Mus musculus with 2 samples.

Results

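The genes described here are the RNA sensors and interferon transcription factors of mouse embryonic fibroblasts, in a line without Dnmt1 and p53 set against a line without p53. The 9 genes were chosen by name: the sensors Ddx58, Ifih1 and Dhx58, the kinase Eif2ak2, and the transcription factors Irf1, Irf3, Irf7, Irf9 and Stat2. All probes carrying one of these symbols in the platform annotation were taken, which gave 16 probes of the 23978 with 1 gene symbol, and 9 of the 16593 genes on the array. Irf1 had 5 probes, Irf3 had 3, Irf9 had 2 and the other 6 genes had 1 each.

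Double-stranded RNA in the cytosol, from viruses or from transcribed repeats, is bound by RIG-I (Ddx58) and MDA5 (Ifih1), which signal through the mitochondrial adaptor Mavs to the kinase Tbk1 and the transcription factors Irf3 and Irf7. These switch on type I interferon genes, and secreted interferon then acts through its receptor to bring Stat2 and Irf9 together in a complex that binds interferon-stimulated response elements. Several genes of the pathway are themselves interferon targets, so these sensors and factors form a loop. Loss of Dnmt1, the enzyme that copies DNA methylation after replication, is known to release transcripts of silenced repeats in fibroblasts.

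The study deposited 1 bead array for each of 2 genotypes on a C57BL background, Dnmt1-/- (p53-/-) and p53-/-. They are called the Dnmt1-deficient line and the control line below. Both lines lack p53, so no cells with intact p53 were compared, and the labels do not say whether each line came from a single clone or embryo. With 1 array per genotype there is no spread between replicates and no test, and every value below is a difference between 2 arrays. A probe counted as detected where its detection p-value, on this kind of array usually the share of negative control probes at least as bright, was under 0.01. Signals had a median of 130 units on the Dnmt1-deficient array and 151 units on the control array. Of the 25697 probes, 39.1% were detected on the Dnmt1-deficient array and 40.1% on the control array. The median ratio of the unprocessed signals, Dnmt1-deficient over control, was 0.860 over all probes, most of them undetected. Over probes detected on at least 1 array it was 0.910. Unprocessed signals thus read slightly lower on the Dnmt1-deficient array, background included. Dnmt1 itself had 1 probe, at 439 units in the Dnmt1-deficient line and 1715 units in the control line, which was 4.54-fold lower after normalization (-2.18 log2). The place of that probe relative to the deleted part was not examined. Of 13 fibroblast markers on the array 12 were detected on both arrays, among them Col1a1, Vim and Thy1. Of these 12, 3 had differences above 0, and the median was -0.49 log2. Prrx1, a mesenchymal transcription factor, was 2.26-fold lower in the Dnmt1-deficient line, and S100a4, a calcium-binding protein, 3.98-fold higher. The part of this in the results below was not tested.

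Among the 9 genes, Dhx58 was higher in the Dnmt1-deficient line by 2-fold or more, none was lower, 5 were detected and lay within 2-fold, and 3 (Ddx58, Ifih1 and Irf7) were detected on neither array. Over all 7727 genes detected on at least 1 array, 5.55% were 2-fold or more higher and 4.59% were 2-fold or more lower. So 1 of the 6 detected genes passed 2-fold, and that gene was the one not detected in the control line. A difference in RNA level can reflect the number of cells that make a transcript or the amount in each cell, and these cannot be told apart in bulk samples. Differences below are of normalized log2 levels, Dnmt1-deficient minus control.

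**Figure D1:**
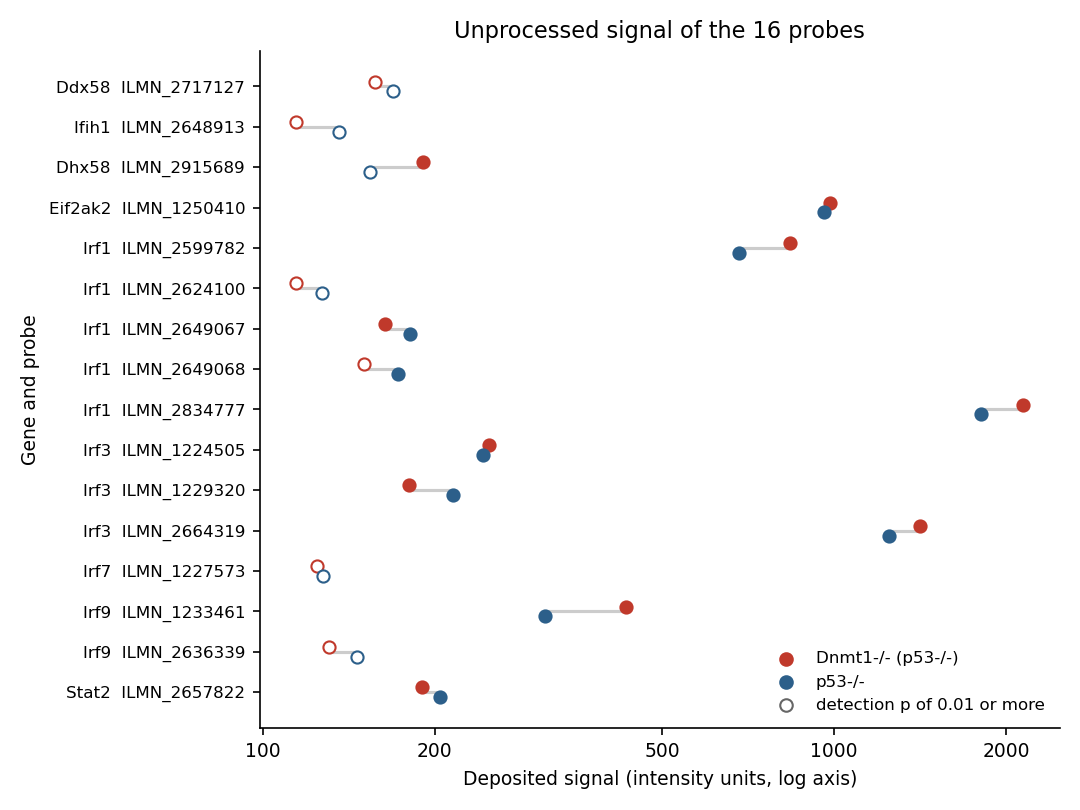
Unprocessed signal of each of the 16 probes (horizontal log axis, intensity units), with 1 point for the Dnmt1-/- (p53-/-) array and 1 for the p53-/- array; open points had a detection p-value of 0.01 or more. Dhx58 is the gene detected on the Dnmt1-/- (p53-/-) array (191 units) and not on the p53-/- array (154 units), while Ifih1 and Irf7 are open on both.

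The 3 RIG-I-like receptors are related helicases. RIG-I and MDA5 carry the signalling domains that recruit Mavs, whereas LGP2, the product of Dhx58, binds RNA without such domains and tunes the output of the other receptors. Dhx58 read 191 units in the Dnmt1-deficient line with a detection p-value of 0.000313, and 154 units in the control line with a detection p-value of 0.0996. It was above nearly all negative controls in the Dnmt1-deficient line and was not called above them in the control line. On the normalized scale these were 6.52 log2 in the Dnmt1-deficient line and 5.15 log2 in the control line, a difference of 1.38 log2 or 2.60-fold. Genes of a similar level scattered by 0.55 log2 around their median difference (robust SD over the 500 nearest genes, a description of these arrays and not of replicates), and 3.65% of detected genes had a larger difference. The control value was not above background, so 2.60-fold is no bound. Set against the dimmest detected level of the control array, Dhx58 was 1.94-fold higher, just short of 2-fold. Some undetected probes lay above that level on the control array, such as Bst2 at 6.09 log2, so 1.94-fold is no lower bound either. Without background correction it differed by 0.50 log2 (1.42-fold), and with an offset of 50 by 0.86 log2, so its place above 2-fold rests on how background was treated.

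Ddx58, the gene of RIG-I, read 157 units in the Dnmt1-deficient line and 169 units in the control line, with a detection p-value of 0.0188 in the Dnmt1-deficient line and 0.0122 in the control line. Both p-values lay just above the limit of 0.01, so no fold is given at that limit. At the alternative limit of 0.05 Ddx58 counted as detected on both arrays, with a difference of 0.28 log2. Ifih1, the gene of MDA5, read 114 units in the Dnmt1-deficient line and 136 units in the control line. Its detection p-value was 0.513 in the Dnmt1-deficient line and 0.486 in the control line, in the middle of the negative controls on both arrays. At the limit of 0.01 the 2 sensors that signal to Mavs were thus detected in neither line, Ddx58 narrowly and Ifih1 clearly. This does not show that the transcripts were absent.

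Eif2ak2 encodes PKR, a kinase that double-stranded RNA activates and that phosphorylates the initiation factor eIF2 to stop translation. It read 984 units in the Dnmt1-deficient line and 959 units in the control line. After normalization the difference was 0.14 log2, or 1.10-fold, where genes at that level scattered by 0.34 log2, and 31.2% of detected genes had a larger difference. PKR transcript was thus well above background on both arrays and nearly equal between them.

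Irf3 encodes the factor that is held in the cytosol and activated by Tbk1, and it is made constitutively in most cells. Its probe ILMN_2664319 read 1413 units in the Dnmt1-deficient line and 1245 units in the control line, a difference of 0.26 log2. The probe ILMN_1224505 read 249 units in the Dnmt1-deficient line and 242 units in the control line, a difference of 0.38 log2. The probe ILMN_1229320 read 180 units in the Dnmt1-deficient line and 215 units in the control line, a difference of -0.16 log2. The 3 probes thus disagreed in sign, and each difference was smaller than the scatter of genes at its level (0.35, 0.48 and 0.49 log2).

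Irf7 encodes the relative of Irf3 that interferon itself induces, and its promoter is known to be subject to silencing by methylation in human cells. Its only probe read 124 units in the Dnmt1-deficient line and 127 units in the control line, with a detection p-value of 0.233 in the Dnmt1-deficient line and 0.755 in the control line. Neither value rose above the negative controls, so no fold is given.

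Irf1 encodes a factor induced chiefly by interferon gamma and by NF-kappaB. Its brightest probe, ILMN_2834777, read 2145 units in the Dnmt1-deficient line and 1809 units in the control line, a difference of 0.31 log2 (1.24-fold). The probe ILMN_2599782 read 838 units in the Dnmt1-deficient line and 681 units in the control line, a difference of 0.47 log2 (1.39-fold). Both lay on the higher side by 0.98 and 1.32 times the scatter of genes at their level. Of the 3 dim probes, ILMN_2649067 and ILMN_2649068 differed by 0.14 and 0.017 log2, and ILMN_2624100 was detected on neither array. Each probe detected on at least 1 array had a difference above 0, and none reached 2-fold. In unprocessed signal the 3 dim probes read lower in the Dnmt1-deficient line, so differences above 0 appeared for them only after normalization.

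Irf9 encodes the DNA-binding subunit of the interferon-activated complex. Its probe ILMN_1233461 read 433 units in the Dnmt1-deficient line and 311 units in the control line. The levels were 8.42 log2 in the Dnmt1-deficient line and 7.51 log2 in the control line, a difference of 0.91 log2 or 1.87-fold, which is 2.29 times the scatter of 0.40 log2 at that level. Among detected genes 6.11% had a larger difference. Irf9 was thus the member with the largest difference among those measured on both arrays, although below 2-fold. Its other probe, ILMN_2636339, read 130 units in the Dnmt1-deficient line and 146 units in the control line and was detected on neither array, so the difference rests on 1 probe, and the mean of both probes gave 0.52 log2.

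Stat2 encodes the subunit that pairs with Irf9 and carries the activation domain. It read 190 units in the Dnmt1-deficient line and 204 units in the control line, dim but detected on both arrays, with a detection p-value of 0.000313 in the Dnmt1-deficient line and 0.000627 in the control line. The normalized levels were 6.51 log2 in the Dnmt1-deficient line and 6.33 log2 in the control line, a difference of 0.19 log2 against a scatter of 0.49 log2. The difference of Stat2 was thus smaller than that scatter.

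Taken over probes, 11 of the 16 were detected on at least 1 array, 10 of these 11 lay within 2-fold, and 1 (Dhx58) was higher. Among all probes with 1 gene symbol detected on at least 1 array, 5.14% were 2-fold or more higher, and 4.12% were 2-fold or more lower. In unprocessed signal 7 of the 16 probes were higher on the Dnmt1-deficient array and 9 lower. The 6 detected genes all had normalized differences above 0, between 0.14 log2 (Eif2ak2) and 1.38 log2 (Dhx58), where 45.8% of all detected genes did. Their median was 0.28 log2, beside -0.04 log2 over all detected genes. Dhx58 passed the detection filter through the Dnmt1-deficient array alone, so a difference above 0 was fixed for it in part by the filter.

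The promoter windows of the members were read from RefSeq (GRCm38.p6), from 250 bases before to 50 bases after each annotated start. CpG sites, in promoters and elsewhere, are where Dnmt1 maintains methylation if it is present, and the interferon response element is what Stat2 and Irf9 bind. The table held windows for 8 of the 9 genes, 10 windows in all, with 2 each for Irf1 and Irf9, and none was found for Dhx58. The interferon response element was searched as GAAA, any 2 bases and GAAA, on both strands. It was found in 4 of the 10 windows, in Ddx58, Ifih1, Eif2ak2 and Stat2, while 3.44% of all 32851 windows of this length held it. A match is a description of the sequence and shows no binding. The matches are given with up to 10 flanking bases on each side, on the strand of the gene and with the element in capitals; the Ifih1 stretch stops at the end of its window.
Ddx58, chr4:40239804-40239833, minus strand: cctgaggcagTTTCGATTTCctatggccag
Ifih1, chr2:62646206-62646233, minus strand: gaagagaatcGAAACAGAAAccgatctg
Eif2ak2, chr17:78882535-78882564, minus strand: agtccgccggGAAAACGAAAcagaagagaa
Stat2, chr10:128270266-128270295, plus strand: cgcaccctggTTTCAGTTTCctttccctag

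In Ddx58, Ifih1 and Eif2ak2 the match began at base 3, 33 and 19 of the transcript, and in Stat2 it began 222 bases before the start. Of these 4 genes, Ddx58 and Ifih1 were not detected on either array, and Eif2ak2 and Stat2 differed by 0.14 and 0.19 log2. Irf9, with 0.91 log2, had no match of these letters in either window. Dhx58 had no window, so the element could be set beside a measured difference in 5 genes.

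Irf1 was the member with a match to the gamma-activated site (TTC, any 3 bases and GAA, the same on both strands) close to its start, where STAT dimers are known to bind. The 250 bases before the start of its more upstream window are shown for that site, which is in capitals and begins 90 bases before the start.
Irf1, chr11:53769764-53770013, plus strand: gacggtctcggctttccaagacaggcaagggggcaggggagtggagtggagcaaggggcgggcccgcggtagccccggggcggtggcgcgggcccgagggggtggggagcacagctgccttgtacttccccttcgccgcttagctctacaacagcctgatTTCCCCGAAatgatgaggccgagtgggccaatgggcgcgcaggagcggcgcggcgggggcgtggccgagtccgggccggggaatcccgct

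The same pattern was found in 8.30% of all windows, and among the members also in Eif2ak2, 178 bases before its start. An NF-kappaB pattern, GGG, any 5 bases and CC on both strands, was found in 6 of the 10 member windows and in 50.8% of all windows, a share like that of the members. Some of its matches overlapped each other, and none overlapped a match of the other patterns.

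CpG content differed widely between the members. The Irf1 windows held 32 and 43 CpG sites, Stat2 held 22, Irf3 18, Eif2ak2 17, Ddx58 15 and Ifih1 14, against a median of 7 over all windows. Irf7 held 7 sites, and the 2 windows of Irf9 held 9 and 1. The more upstream Irf9 window is shown with its CpG sites in capitals, since Irf9 had the largest difference measured on both arrays while its windows held fewer CpG sites than those of most other members.
Irf9, chr14:55603735-55603984, plus strand: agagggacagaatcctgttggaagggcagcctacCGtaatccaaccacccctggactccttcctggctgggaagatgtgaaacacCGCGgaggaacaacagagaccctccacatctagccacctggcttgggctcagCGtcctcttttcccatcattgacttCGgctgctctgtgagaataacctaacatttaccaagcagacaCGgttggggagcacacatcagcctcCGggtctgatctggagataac

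Methylation was not measured on these arrays, so the CpG counts say where methylation could lie and not where it did. Irf9 and Irf7 had the fewest CpG sites of the 8 genes. Irf9 differed by 0.91 log2 and Irf7 was not detected. A relation between CpG count and difference was not tested.

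**Figure D2:**
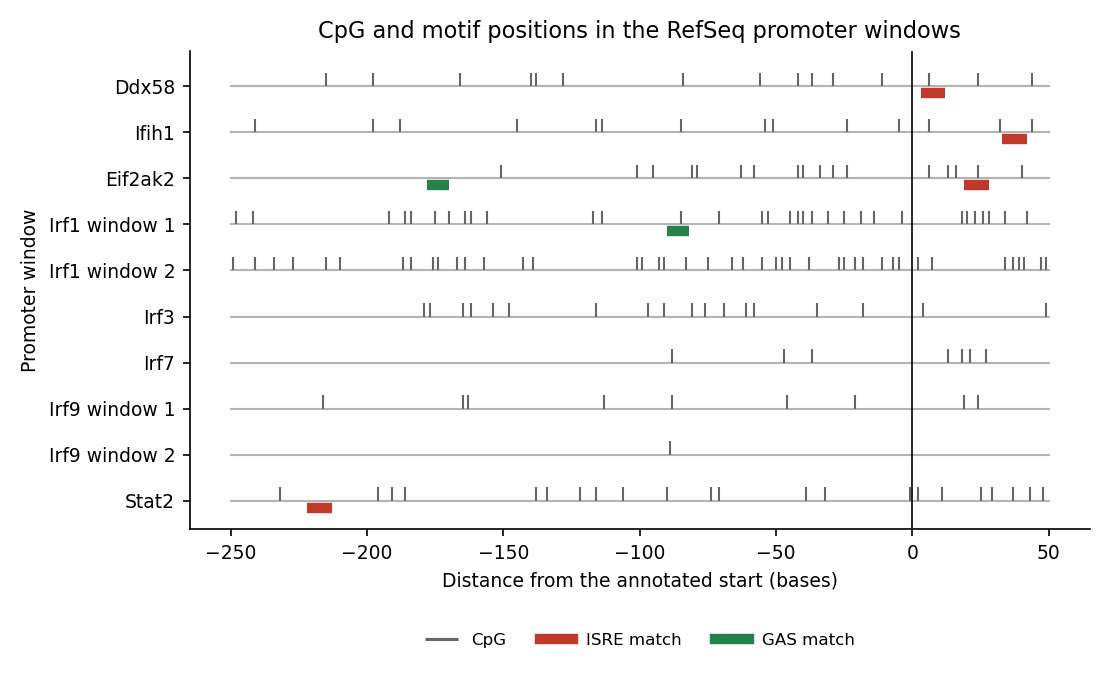
Positions of CpG sites (grey ticks) and of matches to the interferon response element (ISRE, red) and the gamma-activated site (GAS, green) in the 10 RefSeq promoter windows of 8 members, by distance in bases from the annotated start; negative distances lie before it. ISRE matches appear in Ddx58, Ifih1, Eif2ak2 and Stat2, and the windows of Irf9 and Irf7 carry few CpG sites.

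Around the members, the steps of the pathway were compared by gene lists, each described by its counts beside the 5.55% of detected genes that were higher and the 4.59% that were lower. The steps between the sensors and interferon differed little. Of 25 genes of RIG-I-like receptor signalling on the array 20 were detected, 1 was higher, 0 lower and 19 within 2-fold, with a median of 0.04 log2. The higher gene was Nlrx1, a mitochondrial protein that restrains Mavs in mouse cells, at 232 units in the Dnmt1-deficient line and 180 units in the control line, where it was not detected. It was 2.33-fold higher as fitted. Its undetected control level lay above the dimmest detected level of that array, so bounding left this fold unchanged and it is no lower bound. With the mean of its 3 probes Nlrx1 differed by 0.38 log2, without background correction by 0.54 log2 and with an offset of 50 by 0.88 log2. Rela, the NF-kappaB subunit, and Ppp1ca, a phosphatase that activates the sensors, differed by 0.32 and 0.00 log2. The adaptor Mavs read 411 units in the Dnmt1-deficient line and 416 units in the control line, and the kinase Tbk1 read 2152 units in the Dnmt1-deficient line and 2158 units in the control line. Mavs and Tbk1, named after their values were seen, were therefore measured on both arrays at nearly equal signal.

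Of 30 other nucleic acid sensors 17 were detected, 3 were higher, 0 lower and 14 within 2-fold, with a median of 0.11 log2. All 3 were undetected in the control line. Oasl2, of the oligoadenylate synthetase family, read 306 units in the Dnmt1-deficient line and 145 units in the control line. It was 4.51-fold higher against the dimmest detected level of the control array. Aim2, a sensor of cytosolic DNA, read 218 units in the Dnmt1-deficient line and 138 units in the control line. It was 2.55-fold higher against that level. Oas1g read 161 units in the Dnmt1-deficient line and 143 units in the control line, 1.28-fold higher against that level. It has close paralogs whose transcripts its probe may also bind. Oasl2 differed by 1.27 log2 without background correction and by 1.55 log2 with the mean of its 2 probes. Aim2 and Oas1g fell below 2-fold without background correction, and Oas1g also with an offset of 50 and with the mean of its 4 probes.

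Of 11 other IRF and STAT genes 7 were detected, 1 was higher, 0 lower and 6 within 2-fold, with a median of 0.09 log2. Irf5, which acts in inflammatory responses of immune cells, read 285 units in the Dnmt1-deficient line and 200 units in the control line and was 2.50-fold higher (1.32 log2, against a scatter of 0.49 log2). Without background correction its difference was 0.69 log2. Irf2, a repressor that competes with Irf1, differed by 0.22 log2, and Irf2bpl by -0.42 log2. Irf5 thus had a larger difference than any of the 5 members measured on both arrays.

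Of 17 interferon genes only Ifna6 was detected, at 168 units in the Dnmt1-deficient line and 183 units in the control line, a difference of 0.18 log2. Ifnb1, the interferon that fibroblasts are known to make first, read 104 units in the Dnmt1-deficient line and 127 units in the control line and was detected on neither array; it was named after its values were seen. Apart from Ifna6, the interferon transcripts were thus below what these probes could measure in either line. Ifna6 belongs to a family of similar sequence, so its probe may also bind paralogs.

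Of 19 genes for interferon receptors, their kinases and brakes 13 were detected, 1 was higher, 0 lower and 12 within 2-fold, with a median of -0.13 log2. The higher gene was Usp18, an interferon-induced brake on the receptor, at 366 units in the Dnmt1-deficient line and 145 units in the control line. It was 5.77-fold higher against the dimmest detected level of the control array. With the mean of its 3 probes Usp18 differed by 1.93 log2, and without background correction by 1.51 log2. Socs3, a brake on cytokine receptors, differed by -0.84 log2, and Ptpn11 by 0.13 log2. The receptor-bound kinases Jak1 and Tyk2 differed by -0.10 and -0.14 log2, and the receptor chain Ifnar2 by -0.57 log2, all named after their values were seen. Ifnar1 was detected on neither array.

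Interferon-induced targets were more often higher in the Dnmt1-deficient line than lower. Their list was chosen with earlier results of these data known, so its counts are a description and no independent result. The Dnmt1-deficient array detected 23 of 36 targets and the control array 13, and 14 were higher, 0 lower and 9 within 2-fold, with a median of 1.37 log2 beside -0.04 log2 over all detected genes. Of the 14, 5 were detected on both arrays and 9 were not detected in the control line. In all, 10 targets passed the detection filter through the Dnmt1-deficient array alone. A difference above 0 was fixed for them in part by the filter, which raises the count and the median. With bounded differences 11 targets were higher and the median was 0.99 log2. Without background correction 6 were higher. Ifi27, a small membrane protein of the interferon response, read 6755 units in the Dnmt1-deficient line and 394 units in the control line and was 24.5-fold higher. Isg15, a ubiquitin-like modifier, read 588 units in the Dnmt1-deficient line and 165 units in the control line. It was 10.6-fold higher against the dimmest detected level of the control array, and without background correction it differed by 2.00 log2. Bst2, a membrane protein that holds budding viruses at the cell surface, read 638 units in the Dnmt1-deficient line and 191 units in the control line. It was 8.17-fold higher as fitted. This is no lower bound, since its undetected control level lay above the dimmest detected level of that array. Lgals3bp, a secreted glycoprotein, read 1572 units in the Dnmt1-deficient line and 338 units in the control line and was 7.09-fold higher. A difference of this size was thus present in the targets on probes well above background on both arrays (Ifi27 and Lgals3bp), where the sensors and factors had at most 0.91 log2. The targets were not uniform: Ifit2 read 311 units in the Dnmt1-deficient line and 351 units in the control line (-0.02 log2), and Ifit1 and Mx1 were detected on neither array. These 3 were named after their values were seen.

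Markers of other cell types were measured beside the targets. Of 15 immune markers 4 were detected in the Dnmt1-deficient line and 2 in the control line. These 4 all had normalized differences above 0, with a median of 0.48 log2. Cd3e and Siglech passed the detection filter through the Dnmt1-deficient array alone, so a difference above 0 was fixed for them in part by the filter. In unprocessed signal Cd3e and Coro1a read lower in the Dnmt1-deficient line, and Siglech and Cd14 higher. The summed unprocessed signal of all 15, mostly from undetected probes, was 2195 units in the Dnmt1-deficient line and 2326 units in the control line. Ptprc, Itgam, Adgre1, Lyz2 and Tyrobp, which define leukocytes and macrophages, were detected on neither array. Cd14, the marker past 2-fold, read 327 units in the Dnmt1-deficient line and 229 units in the control line. None of 5 endothelial markers was detected. Of 4 epithelial markers 2 were detected in the Dnmt1-deficient line and 0 in the control line. The summed signal of all 4 was 899 units in the Dnmt1-deficient line and 605 units in the control line. Krt14 alone was higher, at 502 units in the Dnmt1-deficient line and 138 units in the control line. Krt8, Krt18 and Cdh1 each read lower in unprocessed signal in the Dnmt1-deficient line. The part of these in the results was not tested.

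**Figure D3:**
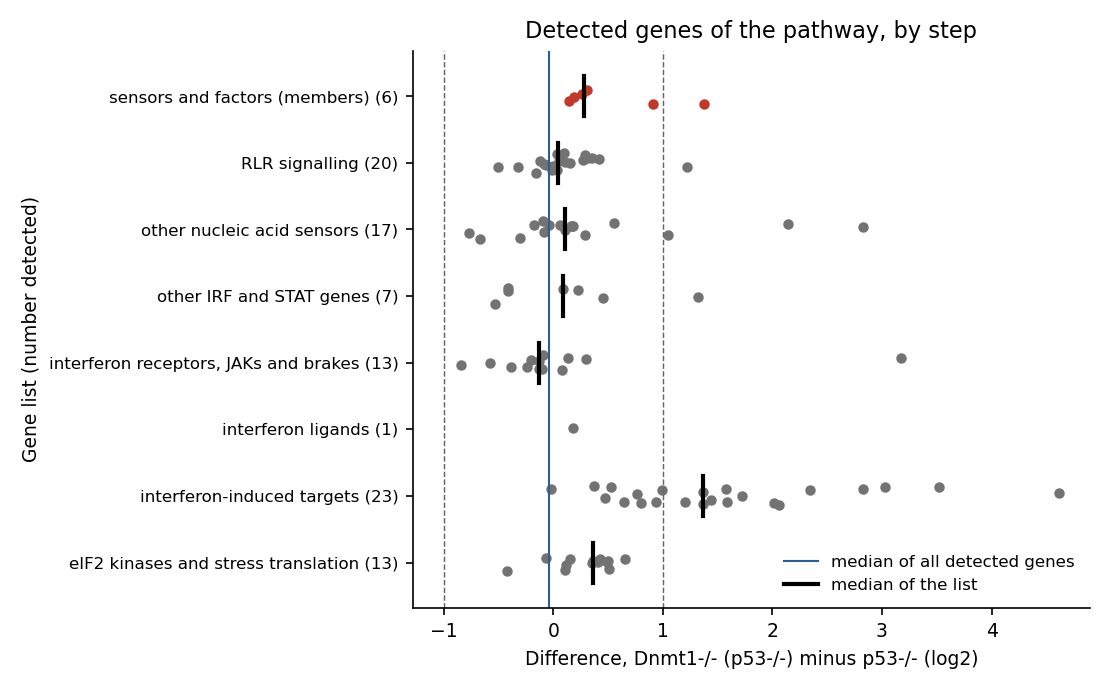
Difference of each detected gene (horizontal axis, Dnmt1-/- (p53-/-) minus p53-/-, log2) by pathway step, with the number detected in brackets; black bars are list medians, dashed lines mark 2-fold and the blue line is the median of all detected genes. The interferon-induced targets have a median of 1.37 log2, while the sensors and factors have 0.28 log2. Of the 23 targets drawn, 10 passed the detection filter through the Dnmt1-/- (p53-/-) array alone.

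PKR shares its substrate eIF2 with 3 other kinases. Of 14 genes for eIF2 kinases and the stress response of translation 13 were detected and 13 were within 2-fold, with a median of 0.36 log2. Asns, an amino acid synthetase gene induced by that response, read 10446 units in the Dnmt1-deficient line and 6952 units in the control line, a difference of 0.51 log2 against a scatter of 0.21 log2. Eif2s2, a subunit of eIF2, differed by -0.42 log2. Of the other kinases, Eif2ak1 differed by 0.41 log2 and Eif2ak3 by -0.07 log2, and Eif2ak4 was detected on neither array. These 3 were named for their role after their values were seen.

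**Figure D4:**
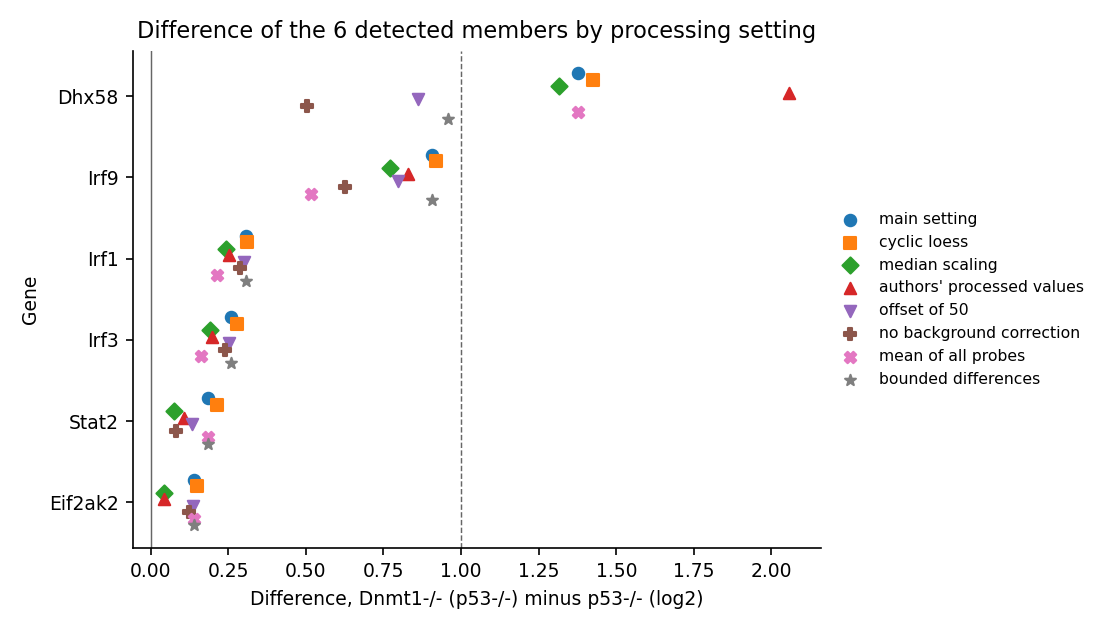
Difference of the 6 detected members (horizontal axis, Dnmt1-/- (p53-/-) minus p53-/-, log2) under the main setting and 7 alternatives that change their values; the dashed line marks 2-fold. Dhx58 spans 0.50 to 2.06 log2 and crosses the line, Irf9 spans 0.52 to 0.92 log2, and the other genes stay between 0.04 and 0.31 log2.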

How the data were processed

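The deposited probe intensity values were linear and, per the file headers, not normalized, with a detection p-value deposited beside each; which scanner software made them is not stated in the sources used here. The authors' processed intensity values, a separate deposited table, kept nearly the rank order of the signals (Spearman rho across probes 0.99997 on the Dnmt1-deficient and 0.99998 on the control array) and were lower by about 116 units on the Dnmt1-deficient and 137 units on the control array and with medians of 13.8 and 14.2. Its exact background and scaling method stayed unknown.

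Signals were processed with neqc of limma 3.58.1 in R 4.3.3 (normexp with parameters inferred from the detection p-values, offset 16, quantile normalization, log2). The processing was tested on simulated data with changes placed only in probes well above background. That test does not cover dim probes such as the one of Dhx58. A gene was represented by its probe of highest mean level and called at 2-fold or more with detection at p under 0.01 on at least 1 array. Where 1 array did not detect it, a bounded fold took for that array the higher of the gene's own level and the lowest detected level. The lowest detected level was 5.66 log2 for the Dnmt1-deficient and 5.57 log2 for the control array. Bounded folds at the lowest detected level are given as folds against the dimmest detected level. They are no strict lower bounds, since some undetected probes lay above that level. Where the own level was the higher, the bounded fold equals the fitted fold and is not given as a bound. Gene symbols came from the platform annotation. Named genes were all members, Dnmt1, and from each list up to 4 genes with the largest called difference, or the 2 brightest detected where fewer than 2 were called; others are marked. The members and lists were chosen with earlier results of these data known. Python 3.11.15 with pandas 2.3.3 and matplotlib 3.10.9 was used for counts and plots.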

Additional observations from a re-analysis of the deposited data

How the results depend on the processing

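The number of arrays, 1 per genotype, limits every value, and no paired analysis was possible because there were no replicates. Under 9 alternatives, 95 of 108 recomputed counts and medians stayed within 1.5 times or within the scatter, and 52 of 54 differences of single members moved by less than the scatter of genes at their level. Dhx58 was the exception among the members, at 0.50 log2 without background correction and 2.06 log2 with the authors' processed values. Part of this stability was fixed in advance. Changing or dropping the detection limit cannot alter the difference of a detected member. Bounding cannot alter members detected on both arrays, and averaging probes cannot alter genes with 1 probe. Some counts, such as that of members lower, were 0 in every setting. The count of members higher by 2-fold or more was 0 without background correction, 0 with an offset of 50 and 0 with bounded differences. Without background correction 199 genes were higher and 142 lower over the array, 6 interferon-induced targets, 1 other sensor, 0 other IRF and STAT genes and 0 genes of RIG-I-like receptor signalling were higher. With an offset of 50, 233 genes were lower, and with the authors' values 568. The count for RIG-I-like receptor signalling was also 0 with an offset of 50 and 0 with the mean of all probes. These alternatives compress or stretch dim signals or average in dim probes by construction. The order of Dhx58 and Irf9 turned round without background correction (0.50 and 0.63 log2). Members not detected have no measured difference: at signals near the negative controls, a lower level or a small increase in Ddx58, Ifih1 or Irf7 could not be seen.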
